A study of Homo sapiens with 16 samples.

Results

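The 10 genes of polyamine synthesis and turnover were followed in LNCaP, an androgen-responsive human prostate cancer cell line of luminal epithelial type, among 60642 genes in the table. They were chosen by name as the enzymes that make the polyamines (ODC1, AMD1, SRM and SMS), the enzymes that acetylate or oxidise them (SAT1, SMOX and PAOX) and the antizymes with their inhibitor (OAZ1, OAZ2 and AZIN1). All 10 passed the filter of at least 1 TPM in 2 or more libraries, as did 16636 genes. TPM (transcripts per 1000000) is a level scaled for gene length and for the library's total.

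Cells of every group had first grown for 72 h with 5% fetal bovine serum, followed by 48 h with 5% charcoal-stripped serum, which is poor in androgen. They were treated for 48 h with both solvents, ethanol and DMSO (VEH), with 10 nM of the androgen dihydrotestosterone (DHT), with 10 µM of the androgen antagonist bicalutamide (BIC), enzalutamide (ENZ) or apalutamide (APA, ARN in the sample labels) without DHT (BIC.VEH, ENZ.VEH and APA.VEH), or with the antagonist and DHT together (BIC.DHT, ENZ.DHT and APA.DHT). Each of the 8 groups had 2 biological replicates, giving 16 libraries of 1 cell line. The comparisons address how this pathway's transcripts respond to androgen and how far each antagonist holds that response back.

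Polyamines (putrescine, spermidine and spermine) are small, positively charged molecules that bind nucleic acids and are needed for growth and translation. The prostate is known for secreting large amounts of spermine into semen. Ornithine decarboxylase makes putrescine, S-adenosylmethionine decarboxylase supplies the aminopropyl donor, and the synthases of spermidine and spermine use that donor in turn. Acetylation by SAT1 marks polyamines for export or for oxidation by PAOX, SMOX oxidises spermine directly, and antizyme binds ornithine decarboxylase and sends it to the proteasome.

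The promoters of the 4 genes whose levels set the DHT libraries apart from all others are shown first. Each line below gives the 250 bases before the annotated start, read 5′ to 3′ on the gene's strand, from the RefSeq annotation of GRCh38.p14. Capitals mark a match to the E-box CACGTG, which factors such as MYC bind, or to the GC box GGGCGG, on either strand. The positions are chrX:21940459-21940708 on the plus strand for SMS, chr1:11060019-11060268 on the minus strand for SRM, chrX:23782923-23783172 on the plus strand for SAT1 and chr2:10448328-10448577 on the minus strand for the first of 2 ODC1 starts.

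SMS: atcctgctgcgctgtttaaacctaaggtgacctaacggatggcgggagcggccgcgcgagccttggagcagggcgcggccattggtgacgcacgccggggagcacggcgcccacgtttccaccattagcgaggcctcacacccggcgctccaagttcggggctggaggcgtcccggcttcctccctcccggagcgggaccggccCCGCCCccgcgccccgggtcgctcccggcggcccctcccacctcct

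SRM: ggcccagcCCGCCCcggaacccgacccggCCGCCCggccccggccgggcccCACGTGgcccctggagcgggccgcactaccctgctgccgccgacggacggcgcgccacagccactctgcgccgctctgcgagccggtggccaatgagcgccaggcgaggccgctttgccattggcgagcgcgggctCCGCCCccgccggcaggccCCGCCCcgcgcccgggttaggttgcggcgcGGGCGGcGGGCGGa

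SAT1: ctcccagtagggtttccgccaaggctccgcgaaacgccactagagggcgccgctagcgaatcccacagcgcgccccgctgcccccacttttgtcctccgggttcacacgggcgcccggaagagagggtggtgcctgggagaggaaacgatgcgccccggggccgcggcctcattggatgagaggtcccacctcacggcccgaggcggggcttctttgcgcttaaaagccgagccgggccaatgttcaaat

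ODC1: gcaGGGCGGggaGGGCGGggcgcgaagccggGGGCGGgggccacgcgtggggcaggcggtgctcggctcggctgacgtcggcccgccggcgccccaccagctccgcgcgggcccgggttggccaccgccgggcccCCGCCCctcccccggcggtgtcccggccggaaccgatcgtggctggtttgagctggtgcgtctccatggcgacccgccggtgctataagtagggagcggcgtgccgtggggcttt

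The SRM stretch held an E-box 199 bases before the start and 6 GC boxes, while the SMS stretch held 1 GC box, 46 bases before the start, and the SAT1 stretch held neither motif. The second annotated start of ODC1 had an E-box 29 bases before it, at chr2:10448026-10448051 on the minus strand with its flanks, and another just after it, at chr2:10447992-10448017, and these 26-base stretches are given for comparison with the SRM site.

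ODC1 before the second start: gggccccgggCACGTGtgcggcgcgc

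ODC1 after the second start: cctgcggagaCACGTGgtcgccgagc

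RefSeq windows of 250 bases before to 50 bases after a start were at hand for 7 of the 10 genes, 10 windows in all, and not for SMOX, PAOX and AZIN1. The E-box lay in 2 of these 10 windows, against 7.26% of all 35116 windows. The GC box lay in 9 of 10, against 45.0%, but 2 of the 3 AMD1 windows start 1 base apart and hold the same box. Both strands were searched. These counts describe letters in short windows and not binding.

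In the libraries, levels of the 10 genes spanned from the most abundant transcripts of the cell to rare ones. OAZ1 had a mean of 1566 TPM over the 16 libraries and ranked 76 of 16636 genes. AMD1 followed at a mean of 548 TPM (rank 203), SAT1 at 413 TPM (rank 273) and ODC1 at 196 TPM (rank 674). SMS, OAZ2 and SRM lay between 120 and 134 TPM, and AZIN1 at 77.5 TPM. The oxidases were far lower, with means of 5.38 TPM for SMOX and 3.38 TPM for PAOX.

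Across libraries, SMS varied most in relative terms, with a coefficient of variation of 68.9%, and OAZ1 least, with 7.3%. ODC1, SRM, SMS and SAT1 had both DHT libraries above all 14 others. The same kind of separation, above or below, was found for 24.5% of all genes tested, with 1755 above and 2314 below. None of the other 6 genes showed it.

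**Figure D1:**
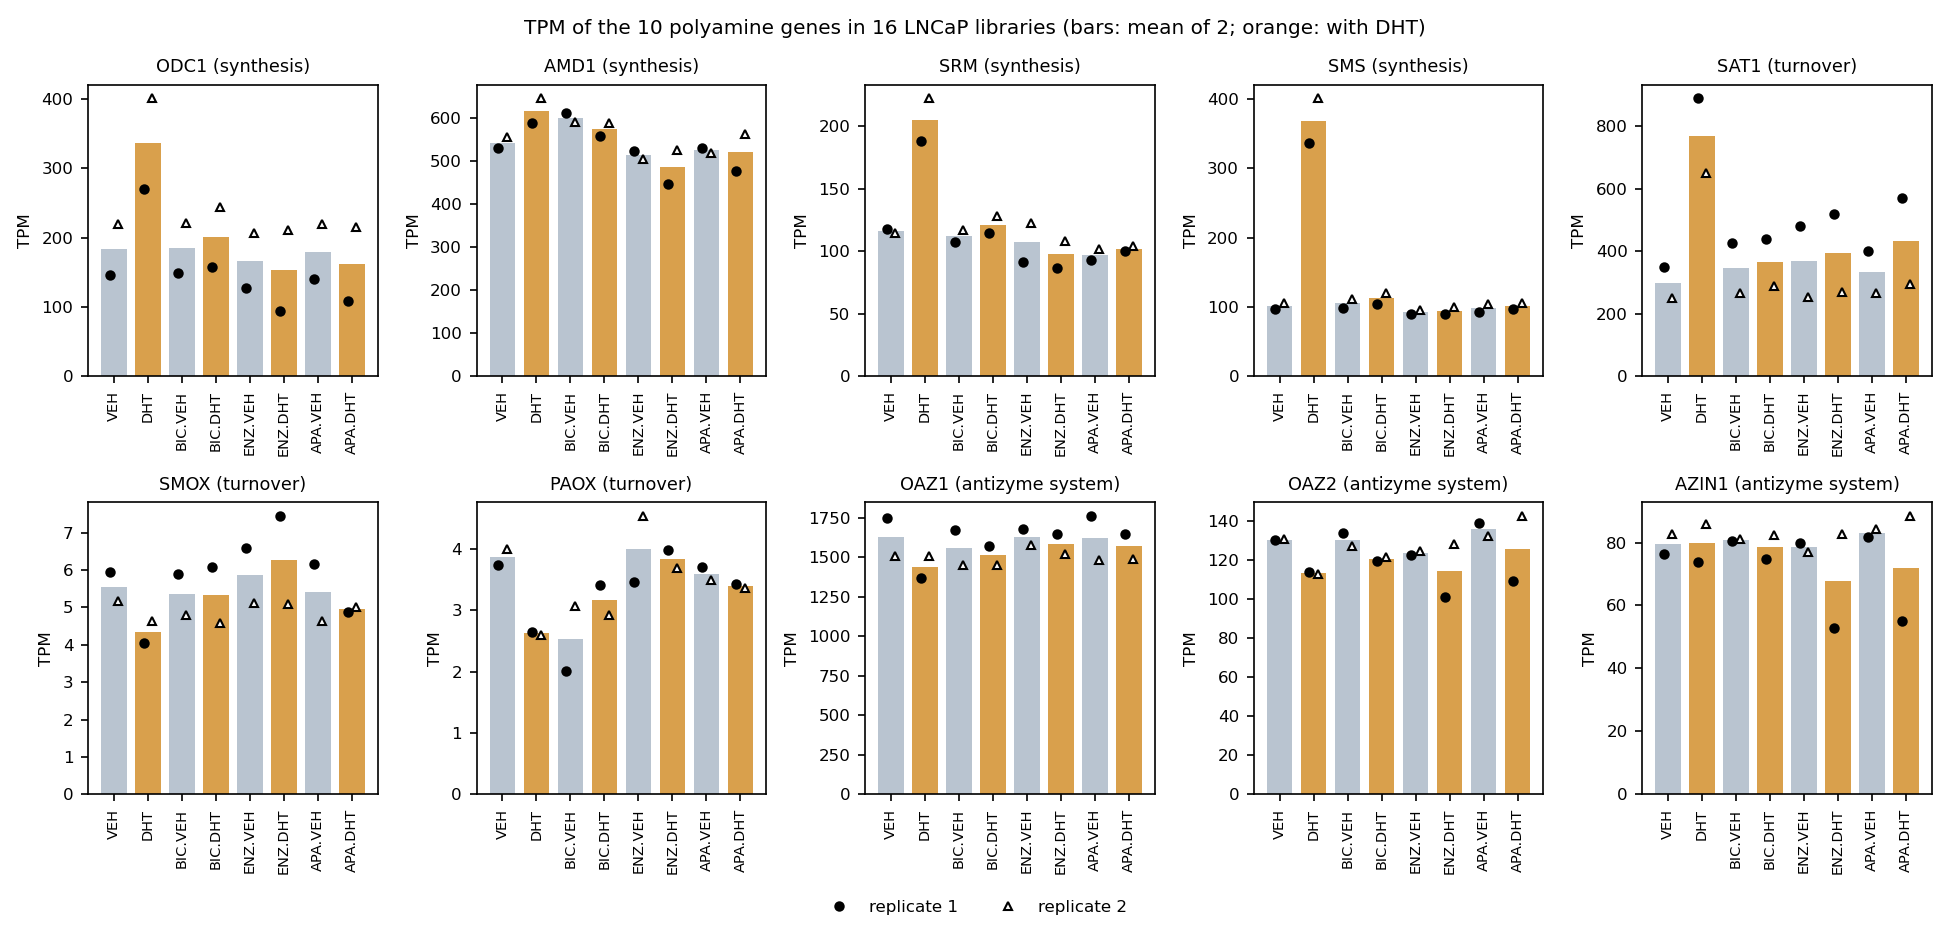
TPM (vertical axis, from 0) of the 10 polyamine genes in the 8 treatment groups, with bars for the mean of 2 replicates, circles for replicate 1 and triangles for replicate 2. SMS, SRM, ODC1 and SAT1 stand highest in DHT, with SMS at 336.49 and 401.18 TPM there and at most 120.09 TPM elsewhere, while OAZ1, OAZ2 and AZIN1 show no such peak.

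KLK3, which encodes prostate-specific antigen and is a standard androgen target, served as a check of the labels. KLK3 stood at 53.04 and 24.01 TPM in VEH and at 4102.26 and 2422.36 TPM in DHT, which on the log2 scale is a rise of 6.42 with an SE of 0.64 (adjusted p = 0.00016 by limma). With DHT, KLK3 measured 844.62 and 444.61 TPM under BIC, 295.82 and 114.86 TPM under ENZ and 339.82 and 90.35 TPM under APA, all below both DHT libraries (adjusted p by limma = 0.081, 0.003 and 0.0029, and 0.0012 for BIC with the block). Luminal markers such as KRT8 and FOLH1 were at 1 TPM or more in every library. Summed basal markers reached at most 1.75 TPM, the leukocyte marker 0.1 TPM and the endothelial marker 0.02 TPM, whereas the 3 fibroblast markers summed to 12.3 to 34.5 TPM, mostly COL1A1, which was at 11.44 and 15.55 TPM in DHT and at 17.11 to 32.55 TPM elsewhere and whose part in the results was not tested. ENZ.DHT and APA.DHT had the least alike replicates, with 5.71% and 6.17% of genes differing more than 2-fold against 2.45% to 3.97% in the other groups.

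SMS, SRM, ODC1 and the turnover gene SAT1 were higher in DHT than in VEH, and which ones were called depended on the fit. AMD1, the other synthesis gene, was not called. Without the replicate number in the model, 2 of the 10 genes rose and 0 fell in DHT against VEH (SMS and SRM). Of all genes tested 10.3% were called, 604 upward and 1105 downward. The median difference of the 10 genes was 0.09 on the log2 scale, against -0.10 over all genes tested. When the replicate number was added to the model as a block, 4 rose (ODC1, SRM, SMS and SAT1). The block was used because same-numbered libraries deviated together across groups. With it 27.4% of all genes were called, 1762 upward and 2797 downward. ODC1, the first step, differed by 0.87 on the log2 scale, beside 0.81 for SRM, but was called with the block alone. In bulk RNA, more cells with a transcript and more transcript per cell cannot be told apart.

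SMS, spermine synthase, lies on chromosome X from 21940709 to 21994837 and had the largest log2 fold change of the 10. It measured 96.47 and 105.72 TPM in VEH and 336.49 and 401.18 TPM in DHT, means of 101 ± 6.54 and 369 ± 45.7 TPM (SD, n = 2). The groups were far apart, and the fold change was 3.61 (95% interval 2.95 to 4.42, log2 1.85, SE 0.13, limma adjusted p = 1.8e-05).

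SRM, spermidine synthase, lies on chromosome 1 from 11054589 to 11060018. It measured 117.79 and 114.74 TPM in VEH and 187.79 and 222 TPM in DHT. The 2 groups did not overlap, and the fold change was 1.75 (95% interval 1.38 to 2.23, log2 0.81, SE 0.16, limma adjusted p = 0.0084). The call depended on 3 of the 4 libraries, since the adjusted p became 0.082 when DHT replicate 2 was left out and 0.054 or 0.056 when replicate 1 or replicate 2 of VEH was, though it stayed called when DHT replicate 1 was. These left-out fits had no block, and with the block and every library kept SRM was called too. The SRM pseudogenes SRMP1 and SRMP2 were listed at 0 in every library.

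ODC1, ornithine decarboxylase, the first and usually rate-limiting enzyme, lies on chromosome 2 from 10439968 to 10448327. It measured 146.11 and 219.98 TPM in VEH and 270.79 and 400.86 TPM in DHT. Each DHT library lay above both VEH libraries, but replicate 2 was well above replicate 1 in both groups. The log2 fold change of 0.87 (SE 0.46) had a limma adjusted p of 0.26 without the block and of 0.0011 with it (SE 0.14).

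AMD1, S-adenosylmethionine decarboxylase, measured 530.67 and 555.7 TPM in VEH and 588.43 and 645.92 TPM in DHT. Its log2 difference of 0.18 (SE 0.12, 95% interval -0.08 to 0.45) was not called (limma adjusted p = 0.38, and 0.16 with the block). AMD1 shares its locus on chromosome 6, from 110814617 to 110895713, with 5 annotated genes, CDK19 among them, of which the highest reached 143.55 TPM. Whether the counting used strand is not given in the sources used here.

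On the turnover side, SAT1, spermidine/spermine N1-acetyltransferase, on chromosome X from 23783173 to 23786210, had the largest difference in mean TPM of the 10. It measured 348.59 and 249.27 TPM in VEH and 888.12 and 650.43 TPM in DHT. The groups did not overlap, and here replicate 1 was the higher one in both. The log2 fold change of 1.36 (SE 0.44) had a limma adjusted p of 0.078 without the block and of 5.6e-05 with it (SE 0.13), a 2.57-fold difference.

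The 2 oxidases did not pass the test. SMOX, spermine oxidase, measured 5.94 and 5.16 TPM in VEH and 4.04 and 4.65 TPM in DHT, a log2 difference of -0.29 (limma adjusted p = 0.42). PAOX, which oxidises acetylated polyamines, measured 3.74 and 4 TPM in VEH and 2.65 and 2.59 TPM in DHT, a log2 difference of -0.43 (limma adjusted p = 0.16, and 0.07 with the block). At such levels the added 1 TPM of the log scale understates a change.

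Among the regulators, 0 of 3 were called by limma in DHT against VEH, without or with the block. The shares of all genes called were 10.3% and 27.4%, so that 0 of 3 does not set these genes apart. OAZ1, the main antizyme, measured 1746.81 and 1507.77 TPM in VEH and 1365.77 and 1504.71 TPM in DHT, a log2 difference of -0.18 (95% interval -0.49 to 0.13). OAZ2, a second antizyme, measured 130.56 and 130.69 TPM in VEH and 113.94 and 112.94 TPM in DHT, a log2 difference of -0.20 (95% interval -0.51 to 0.11). AZIN1, the antizyme inhibitor, which frees ornithine decarboxylase from antizyme, had a log2 difference of 0.00 (95% interval -0.49 to 0.49) from 76.5 and 82.77 TPM in VEH and 73.69 and 86 TPM in DHT. These are transcript levels. Antizyme is known to be made through a polyamine-dependent frameshift during translation, which TPM does not measure.

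The DHT libraries also carried more proliferation transcripts. The summed level of MKI67, TOP2A, CCNB1, MCM2 and PCNA was 221 TPM in DHT replicate 1, against 71.3 to 163 TPM in the other replicate 1 libraries, and 440 TPM in DHT replicate 2, against 196 to 308 TPM in the other replicate 2 libraries. Their part in the polyamine gene differences was not tested.

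Each antagonist given with DHT lowered SMS and SRM relative to DHT alone. Against DHT, 2 of the 10 genes fell and 0 rose in BIC.DHT, in ENZ.DHT and in APA.DHT. Of all genes 3.13%, 9.65% and 8.36% were called, with 279, 817 and 684 genes downward. These comparisons share the DHT libraries with each other and with the comparison to VEH, so their agreement is not independent. The median log2 difference of the 10 genes was -0.06, -0.31 and -0.22 for BIC, ENZ and APA, against 0.00, -0.01 and 0.00 over all genes.

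SMS measured 104.86 and 120.09 TPM in BIC.DHT, 89.54 and 99.9 TPM in ENZ.DHT and 97.25 and 105.91 TPM in APA.DHT. All 6 libraries were below both DHT libraries. Levels were 3.25-, 3.85- and 3.59-fold lower than in DHT (log2 -1.70, -1.95 and -1.85, SE 0.13, with adjusted p by limma of 0.00014, 2.6e-05 and 3e-05).

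SRM measured 114.63 and 127.69 TPM in BIC.DHT, 86.9 and 108.16 TPM in ENZ.DHT and 99.73 and 104.17 TPM in APA.DHT, again below both DHT libraries. On the log2 scale these were differences of -0.75, -1.07 and -1.0 with an SE of 0.16 (adjusted p by limma = 0.028, 0.0021 and 0.0035). With the block and every library kept, SRM was called under each antagonist too, while the fits with a library left out had no block. The call for BIC.DHT was lost when any 1 of the 4 libraries was left out, with adjusted p of 0.073 without DHT replicate 1, 0.22 without DHT replicate 2, 0.23 without BIC.DHT replicate 1 and 0.11 without BIC.DHT replicate 2.

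ODC1 measured 157.99 and 244.64 TPM in BIC.DHT, 94.93 and 211.4 TPM in ENZ.DHT and 109.28 and 214.89 TPM in APA.DHT. Every one of these values was below the lower DHT library. The log2 differences were -0.74, -1.21 and -1.10 with an SE of 0.46, and the adjusted p by limma was 0.51, 0.12 and 0.17 without the block and 0.0063, 0.00016 and 0.00032 with it.

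SAT1 measured 439.42 and 289.54 TPM in BIC.DHT, 518.09 and 270.57 TPM in ENZ.DHT and 569.96 and 296.23 TPM in APA.DHT. These too lay below the lower DHT library, and the replicates of each group were far apart. The log2 differences were -1.09, -1.02 and -0.89 with an SE of 0.44, and the adjusted p by limma was 0.26, 0.17 and 0.25 without the block and 0.00064, 0.00034 and 0.00084 with it.

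With the block, 4 genes fell in BIC.DHT and APA.DHT and 5 in ENZ.DHT, while 13.3%, 27.3% and 29.2% of all genes were called. The fifth in ENZ.DHT was AMD1, at 446.45 and 526.27 TPM, with a log2 difference of -0.35 (limma adjusted p = 0.098, 0.016 with the block and 0.049 under median-ratio scaling). In BIC.DHT, AMD1 measured 559.2 and 588.32 TPM and was not called by either fit. SMOX, PAOX, OAZ1, OAZ2 and AZIN1 were not called against DHT under any antagonist by either fit, with log2 differences between -0.26 and 0.43. AZIN1 was low in a single library of each of 2 groups, at 52.73 TPM in ENZ.DHT replicate 1 and 55.2 TPM in APA.DHT replicate 1, against 82.77 and 88.35 TPM in replicate 2.

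**Figure D2:**
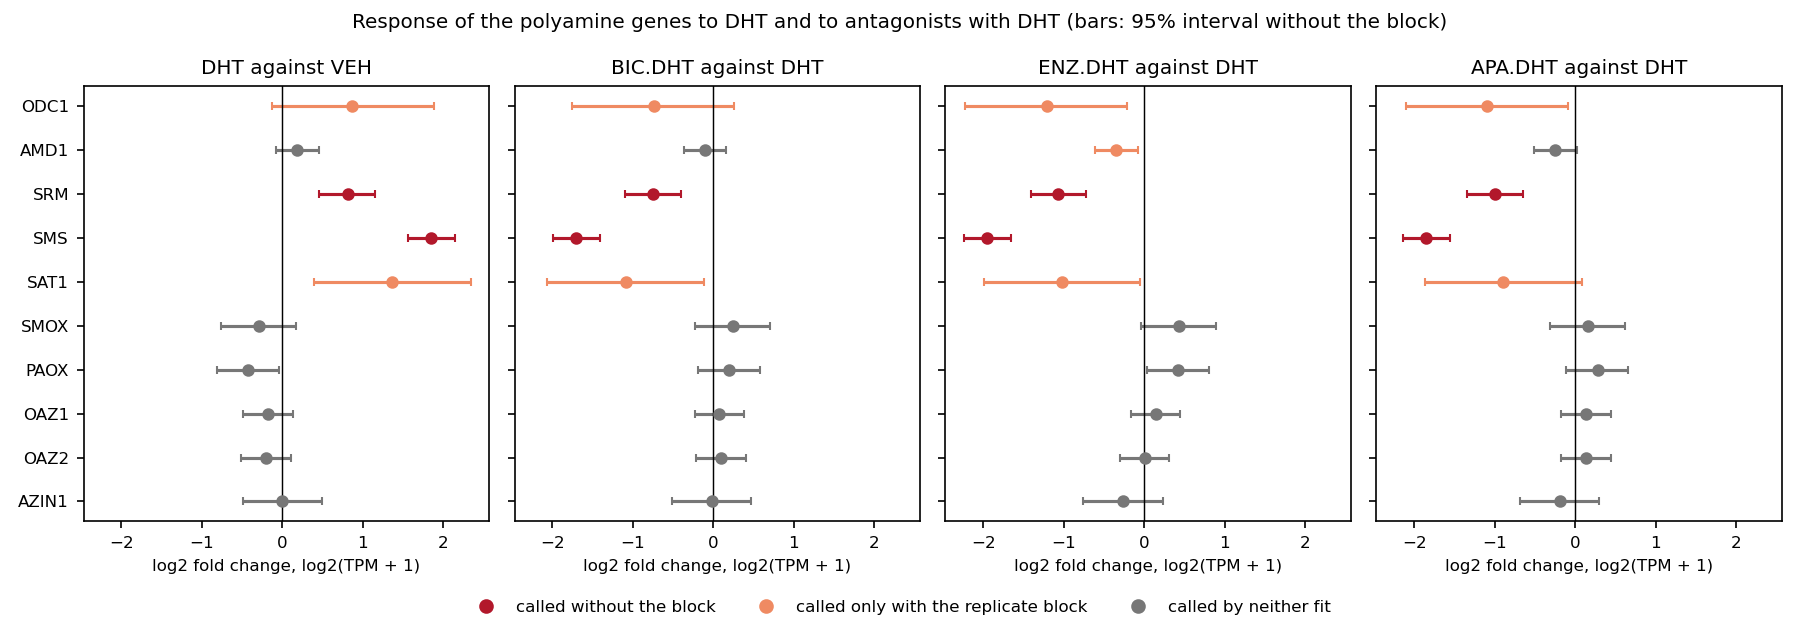
Log2 fold change on the log2(TPM + 1) scale (horizontal axis) of the 10 genes in 4 comparisons, with bars for the 95% interval of the fit without the replicate block and colours for the calls. SMS and SRM are called in all 4 comparisons without the block, ODC1 and SAT1 in all 4 with the block alone, and AMD1 in ENZ.DHT against DHT by the blocked fit of the 2 drawn.

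Whether DHT acted differently with an antagonist present was tested by the interaction, the DHT effect with the antagonist minus the DHT effect without it. SMS was called for all 3 antagonists, with interactions of -1.76 for BIC, -1.83 for ENZ and -1.81 for APA on the log2 scale (SE 0.19, limma adjusted p = 0.0016, 0.00099 and 0.0011). It was the 1 gene of the 10 called, while 0.986%, 1.63% and 1.42% of all genes were called. With the block, SRM, ODC1 and SAT1 were called as well for each antagonist, while 6.39%, 9.91% and 10.1% of all genes were called. SRM had interactions of -0.69, -0.93 and -0.74 for BIC, ENZ and APA (limma adjusted p = 0.23, 0.07 and 0.16, and 0.021, 0.0037 and 0.013 with the block). ODC1 had -0.76, -1.07 and -1.07 (0.82, 0.56 and 0.53 without the block as limma adjusted p, and 0.047, 0.0075 and 0.008 with it), and SAT1 had -1.28, -1.26 and -1.04 (0.54, 0.44 and 0.53, and 0.0034, 0.0026 and 0.0075).

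Within an antagonist, DHT left the 10 genes uncalled. The mean of KLK3 went from 282 to 645 TPM under BIC, where 0 genes were called by either fit. It went from 72.2 to 205 TPM under ENZ and from 25.4 to 215 TPM under APA. The lack of calls thus does not show that no DHT response was left. SMS had log2 differences of 0.10 (95% interval -0.20 to 0.39) under BIC, 0.03 (-0.27 to 0.32) under ENZ and 0.04 (-0.25 to 0.34) under APA. SRM had 0.11 (-0.23 to 0.46), -0.13 (-0.47 to 0.22) and 0.07 (-0.28 to 0.42). For this comparison within BIC, ENZ and APA, limma called 0 of the 10 genes by either fit, and 0 reached an unadjusted p under 0.05 without the block. Over all genes the called share was 0%, 0.00601% and 0.00601% without the block, with 234, 541 and 408 genes at an unadjusted p under 0.05. With the block the share was 0%, 0.00601% and 0.024%. At an unadjusted p under 0.05, the block gave 0, 0 and 1 of the 10 genes, beside 768, 1588 and 1158 of all genes.

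Without DHT, the antagonists gave no call among the 10 genes either. KLK3 measured 358.12 and 205.68 TPM in BIC.VEH against 53.04 and 24.01 TPM in VEH (log2 2.89, SE 0.64). Even this was not called without the block, so a missing call here does not show a missing effect. In ENZ.VEH and APA.VEH, KLK3 was at 72.87 and 71.54 TPM and at 30.41 and 20.38 TPM. SMS measured 98.14 and 112.26 TPM in BIC.VEH, 90.37 and 95.51 TPM in ENZ.VEH and 92.72 and 104.36 TPM in APA.VEH, so that every group overlapped VEH or came within 1 TPM of it. SRM was at 107.06 and 116.51 TPM, 91.45 and 122.71 TPM, and 92.82 and 101.36 TPM in the same groups. The 95% intervals of the log2 difference from VEH were -0.24 to 0.35, -0.41 to 0.17 and -0.33 to 0.25 for SMS with BIC, ENZ and APA. Limma called 0 of 10 by either fit, and without the block 1 gene, PAOX in BIC.VEH, reached an unadjusted p under 0.05 (log2 difference -0.48, limma adjusted p = 1), from 2.01 and 3.06 TPM. Over all genes the called share was 0%, 0% and 0.00601% for BIC, ENZ and APA, with 194, 139 and 151 genes at an unadjusted p under 0.05. With the block the share was 0.018%, 0% and 0.012%, with 539, 483 and 399 genes at an unadjusted p under 0.05. Among the 10 genes the block gave 1, 0 and 1 at that level. The fit without the block leaves the replicate difference in its spread.

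With DHT present, the 3 antagonists formed 3 pairs at the same dose and time. SMS differed by -0.24 on the log2 scale between ENZ.DHT and BIC.DHT (95% interval -0.54 to 0.05), by -0.14 between APA.DHT and BIC.DHT (-0.44 to 0.15) and by 0.10 between APA.DHT and ENZ.DHT (-0.19 to 0.39). SRM differed by -0.32 (-0.66 to 0.03), -0.25 (-0.59 to 0.10) and 0.07 (-0.28 to 0.42) in the same pairs. None was called, with limma adjusted p of 0.93 for both genes in the first pair and of 1 in the others, and differences up to the bounds of these intervals remain possible. Limma called 0 of the 10 genes in any pair by either fit, and 0 reached an unadjusted p under 0.05 without the block, while 0.00601%, 0% and 0.00601% of all genes were called, with 565, 483 and 102 at an unadjusted p under 0.05. With the block these shares were 0.012%, 0.0541% and 0.00601%. At an unadjusted p under 0.05, the block gave 4, 2 and 0 of the 10 genes, beside 2062, 1643 and 232 of all 16636. The 4 were the synthesis genes ODC1, AMD1, SRM and SMS, all lower in ENZ.DHT than in BIC.DHT (log2 -0.47 to -0.24). Their limma adjusted p with the block was 0.21 to 0.32, so none was called.

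In the order of group means, SMS stood at 369 TPM in DHT and then at 112 TPM in BIC.DHT, down to 92.9 TPM in ENZ.VEH, and each of the 7 lower groups overlapped its neighbour in that order. The same held for SRM, from 205 TPM in DHT to 121 TPM in BIC.DHT and 97.1 TPM in APA.VEH, and for ODC1, from 336 TPM in DHT to 201 TPM in BIC.DHT and 153 TPM in ENZ.DHT. SAT1 stood at 769 TPM in DHT and at 433 TPM in APA.DHT, the next group, which overlapped the one below it. AMD1 had DHT first at 617 TPM, but BIC.VEH, with 611.55 and 590.58 TPM, overlapped it.

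ODC1 and SAT1 differed between the replicate numbers in opposite directions. Replicate 2 of ODC1 was higher in 8 of 8 groups, by 0.56 to 1.15 on the log2 scale (median 0.63). Replicate 1 of SAT1 was the higher in 8 of 8, with replicate 2 minus replicate 1 between -0.94 and -0.45 (median -0.64). SMS was higher in replicate 2 in 8 of 8 groups by only 0.08 to 0.25, and SRM in 7 of 8. AZIN1 differed by 0.64 in ENZ.DHT and 0.67 in APA.DHT, and by -0.05 to 0.22 in the other groups.

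Proliferation transcripts followed the replicate number too. MKI67, a marker of cycling cells, was higher in replicate 2 in 8 of 8 groups by 1.00 to 2.38 on the log2 scale (median 1.65), and TOP2A, CCNB1, MCM2 and PCNA were higher there in 8 of 8 as well. What set the replicates apart, and its part in the ODC1 and SAT1 values, was not tested.

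**Figure D3:**
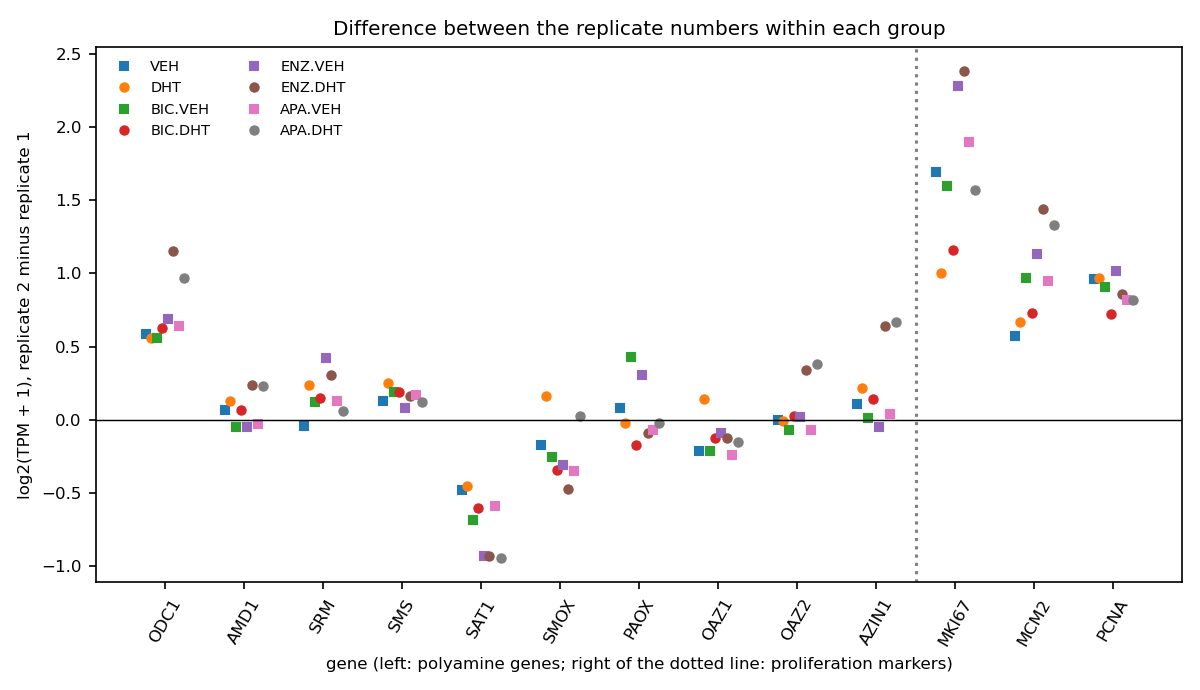
Replicate 2 minus replicate 1 of log2(TPM + 1) (vertical axis) in each of the 8 groups for the 10 polyamine genes and, right of the dotted line, 3 proliferation markers. ODC1 lies above 0 and SAT1 below 0 in all 8 groups, and MKI67, MCM2 and PCNA lie above 0 in all 8.

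Over the 8 group means of log2(TPM + 1), SMS and SRM had a Pearson r of 0.97, ODC1 and SRM 0.97, ODC1 and SMS 0.95 and SMS and SAT1 0.93. Such values describe 8 means from 16 libraries in which the DHT group stands apart. Both DHT libraries lay above all others for 1755 genes, as for these, and below them for 2314, together 24.5% of all genes. Among 11055 genes with a mean of at least 5 TPM, those most like SMS were AL354714.2 (r = 0.996, means of 3.95 TPM in VEH and 15.5 TPM in DHT), FBXW9 (0.996) and AATF (0.995). Those most like SRM were CCM2 (0.996, means of 31.6 and 43.0 TPM), WDR77 (0.995) and MRPS2 (0.995). An r above 0.95 was reached by 329 genes for SMS and by 376 for SRM, so that these names are the top of long lists.

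Around the 10 genes, 32 others that supply, use or transport polyamines or are paralogs were examined, and 29 of them were tested. In DHT against VEH, 2 rose, 2 fell and 25 were not called, with a median log2 difference of 0.12 against -0.10 over all genes, of which 10.3% were called. With the block 9 rose and 3 fell, while 27.4% of all genes were called. In BIC.DHT, ENZ.DHT and APA.DHT against DHT, 2, 3 and 3 rose and 0, 2 and 2 fell, beside 3.13%, 9.65% and 8.36% of all genes called. With the block 8, 18 and 14 were called, beside 13.3%, 29.2% and 27.3% of all genes.

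In the supply of ornithine and its relatives, 2 of 6 tested genes were called in DHT against VEH, 1 in each direction, beside 10.3% of all genes. With the block 5 of 6 were called, ARG2, ASL, OAT and PYCR1 upward and ASS1 downward, beside 27.4% of all genes. PYCR1, the last enzyme of proline synthesis, measured 109 and 116.62 TPM in VEH and 213.7 and 232.8 TPM in DHT, and rose (log2 0.98, SE 0.22, limma adjusted p = 0.019). ASS1, argininosuccinate synthase, which serves arginine synthesis, measured 167.39 and 163.89 TPM in VEH and 76.83 and 99.23 TPM in DHT, and fell by 0.92 on the log2 scale (SE 0.13, limma adjusted p = 0.0017). With an antagonist and DHT, ASS1 lay between 140.12 and 170.48 TPM, above both DHT libraries, and rose against DHT for BIC, ENZ and APA (log2 0.76, 0.83 and 0.84, limma adjusted p = 0.013, 0.0036 and 0.0035). PYCR1 fell by 1.07 with ENZ and by 1.16 with APA (limma adjusted p = 0.014 and 0.0098), whereas in BIC.DHT it measured 117.39 and 144.83 TPM and was called with the block alone (log2 -0.77, adjusted p = 0.0018). ARG2, the arginase that makes ornithine in mitochondria, had a log2 difference of 1.15 in DHT against VEH that was called with the block alone (adjusted p = 0.00026). Against DHT, the block called 4 of the 6 in BIC.DHT (ASL, ASS1, OAT and PYCR1), all 6 in ENZ.DHT and 5 in APA.DHT (all but ALDH18A1). The shares of all genes called there were 13.3%, 29.2% and 27.3%.

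Over all genes, 10.3% were called in DHT against VEH without the block and 27.4% with it. Against DHT, the shares in BIC.DHT, ENZ.DHT and APA.DHT were 3.13%, 9.65% and 8.36% without the block. With it they were 13.3%, 29.2% and 27.3%. Of the 4 genes of hypusine formation, the use of spermidine to modify the translation factor eIF5A, EIF5A itself was called without the block. It measured 331.2 and 354.26 TPM in VEH and 488.54 and 538.44 TPM in DHT (log2 0.58, SE 0.15, limma adjusted p = 0.036), and fell by 0.71 in ENZ.DHT and by 0.61 in APA.DHT against DHT (limma adjusted p = 0.016 and 0.033). In BIC.DHT its log2 difference of -0.40 was called with the block alone (adjusted p = 0.015). The block also called DOHH, the hydroxylase that completes hypusine, in all 4 comparisons (log2 0.57 in DHT against VEH, adjusted p = 0.035), and EIF5A2 in ENZ.DHT and APA.DHT against DHT. Of 8 transport genes, SLC18B1, a vesicular polyamine transporter, was called without the block. It measured 6.56 and 7.07 TPM in VEH, 2.01 and 2.8 TPM in DHT and 4.72 to 7.2 TPM with an antagonist and DHT, a log2 difference of -1.21 in DHT against VEH (SE 0.20, limma adjusted p = 0.0038). It rose against DHT for BIC, ENZ and APA (log2 1.08, 0.99 and 1.06, limma adjusted p = 0.018, 0.013 and 0.0094). With the block ATP13A2 was called as well in DHT against VEH (log2 -0.44, adjusted p = 0.044), and ATP13A3 in ENZ.DHT against DHT. SLC7A1, an arginine transporter, was called with it in ENZ.DHT and APA.DHT against DHT (log2 -0.97 and -1.02). SLC7A1 measured 24.04 and 40.66 TPM in DHT, 9.54 and 24.71 TPM in ENZ.DHT and 8.53 and 25.68 TPM in APA.DHT. Its replicates differed by 1.29 and 1.49 on the log2 scale in ENZ.DHT and APA.DHT, against 0.35 to 0.73 in the other groups.

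Of the 8 tested genes of the methionine cycle and methylthioadenosine salvage, limma called 0 in DHT against VEH without the block. These routes recycle the by-product of the synthases. The share of all genes called there was 10.3%, and 1 of the 8 reached an unadjusted p under 0.05. With the block limma called 2, MTAP and ENOPH1, beside 27.4% of all genes. Against DHT the block called 0 in BIC.DHT, 3 in ENZ.DHT (MTAP, ENOPH1 and AHCY) and 2 in APA.DHT (MTAP and ENOPH1). The shares of all genes called there were 13.3%, 29.2% and 27.3%. Among 3 paralogs, SAT2, which resembles SAT1 in sequence, measured 115.3 and 111.62 TPM in VEH and 101.81 and 91.47 TPM in DHT and was not called there. Against DHT it rose in ENZ.DHT, at 159.22 and 126.41 TPM (log2 0.55, limma adjusted p = 0.024), and in APA.DHT it lay at the threshold, at 144.08 and 124.64 TPM (log2 0.47, limma adjusted p = 0.05 after rounding). The block also called OAZ3 in all 4 comparisons (log2 0.54 in DHT against VEH, adjusted p = 0.011) and AZIN2 in ENZ.DHT against DHT.

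With the block and every library kept, PYCR1, EIF5A, ASS1 and SLC18B1 were called in all 4 comparisons. SAT2 was called with it in ENZ.DHT and APA.DHT against DHT. Many neighbour calls of the fit without the block depended on single libraries, by the adjusted p of limma with 1 library left out. None of the fits that follow had the block. In DHT against VEH, PYCR1 (0.071 to 0.12) and EIF5A (0.087 to 0.2) lost the call without any 1 of the 4 libraries, whereas ASS1 and SLC18B1 kept it. In BIC.DHT against DHT, ASS1 lost it without either BIC.DHT library or DHT replicate 1 (0.063 to 0.12) and SLC18B1 without any 1 of the 4 (0.053 to 0.14). In ENZ.DHT against DHT, EIF5A, PYCR1 and SAT2 lost it without either DHT library or ENZ.DHT replicate 1 (0.055 to 0.19), and SLC18B1 without DHT replicate 1 (0.095) or ENZ.DHT replicate 2 (0.058). In APA.DHT against DHT, EIF5A and SAT2 lost it without either DHT library or APA.DHT replicate 1 (0.086 to 0.25), PYCR1 without APA.DHT replicate 1 (0.076) or DHT replicate 2 (0.078), and SLC18B1 without DHT replicate 1 (0.078). ASS1 kept its call for ENZ and APA with any 1 library left out. A fit to the compared groups alone called 0 of these neighbours in any of the 4 comparisons (adjusted p of 0.054 to 0.31 for PYCR1, EIF5A, ASS1, SLC18B1 and SAT2). That fit has few degrees of freedom. Over all genes it called 173 in DHT against VEH and 0, 7 and 0 in BIC.DHT, ENZ.DHT and APA.DHT against DHT, so its lack of calls is not particular to these neighbours. Under median-ratio scaling SAT2 was not called for either (adjusted p = 0.056 and 0.11), and without the filter on low values EIF5A was not called in DHT against VEH (0.062) or in APA.DHT against DHT (0.058). SAT2 in APA.DHT was also not called without that filter (0.064) or without mitochondrial genes (0.088).

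**Figure D4:**
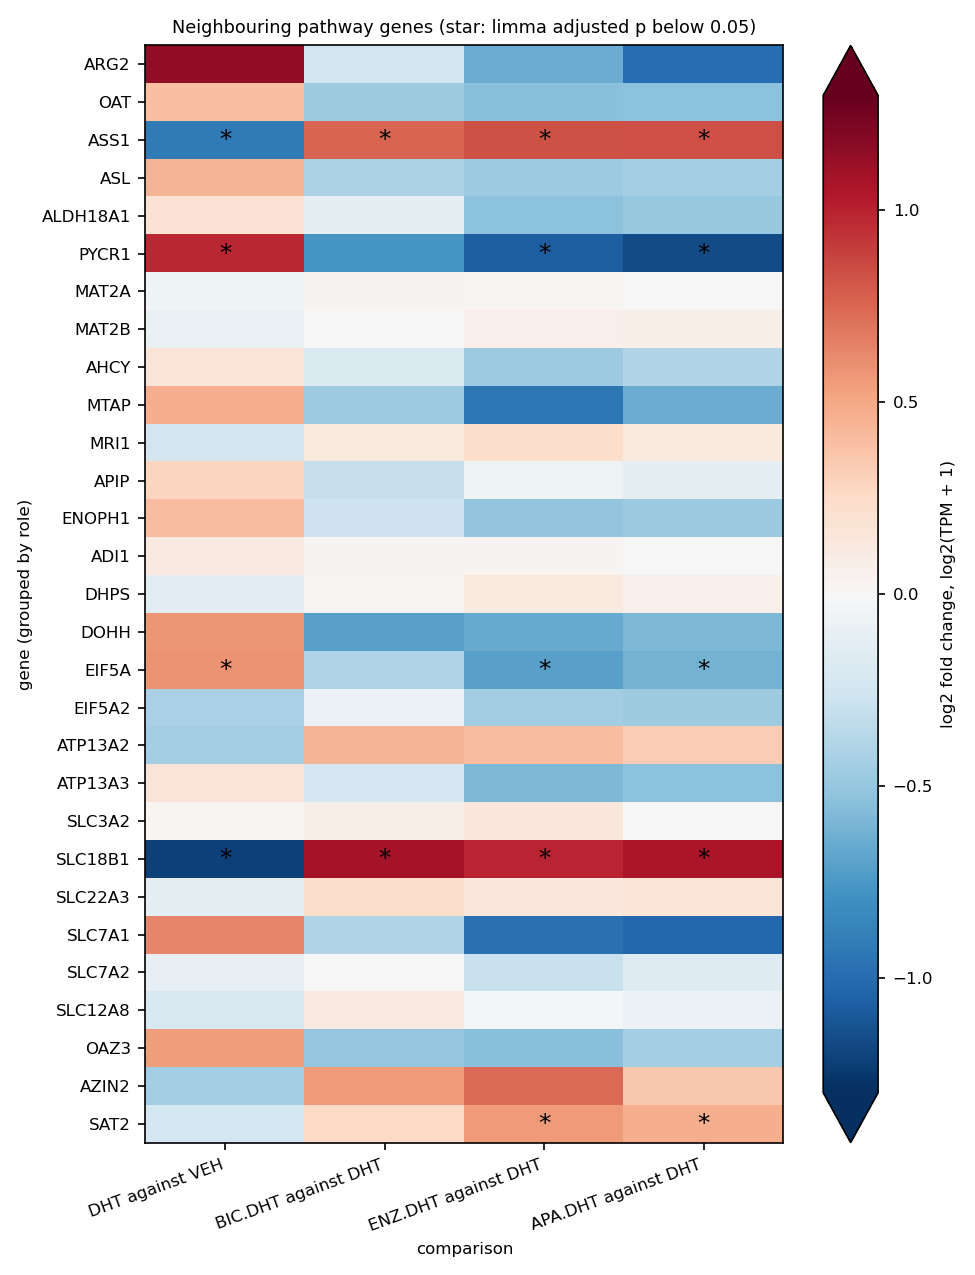
Log2 fold change on the log2(TPM + 1) scale (colour) of the 29 tested neighbouring genes (vertical axis, grouped by role) in 4 comparisons (horizontal axis), with a star where the limma adjusted p without the block was below 0.05. ASS1 and SLC18B1 carry a star in all 4 comparisons, lower in DHT against VEH and higher in the other 3, while PYCR1 and EIF5A run the opposite way.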

How the data were processed

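RNA of LNCaP cells (16 libraries, 8 groups of 2) was sequenced, per the labels, as stranded, poly(A)-selected 125 bp read pairs at about 40 M pairs per library. According to the submitters' processing notes and the study's methods, reads were checked with FastQC 0.11.9, trimmed with Trim Galore 0.6.5, aligned to GRCh38 (Ensembl 99, Gencode 33) with STAR 2.7.2b and quantified with RSEM 1.3.3. The deposited values are TPM per gene symbol, made by the authors without pooling replicates, and 0 columns belonged to other samples. TPM keeps no read depth, so precision was judged from replicates alone, with no counting interval. TPM also shares a fixed total, so that a change in abundant transcripts shifts all others, and mitochondrial genes held from 14.7% of it in DHT replicate 2 to 22.3% in DHT replicate 1.

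Here log2(TPM + 1) of the 16636 genes at 1 TPM or more in at least 2 libraries was fitted with limma 3.58.1 (R 4.3.3, trend option) to 8 group means, with 16 contrasts. A gene was called at a Benjamini-Hochberg adjusted p under 0.05 over all genes of a contrast, tests were two-sided, and folds are on the log2(TPM + 1) scale. The deviations of same-numbered libraries from their group means correlated in 28 of 28 pairs of groups (0.204 to 0.635, median 0.427), so the replicate number was taken to pair the samples, and a fit with it as a block is given where it changed a call of the 10 genes, and for the neighbours mainly as counts and names. Labels call the replicates biological, and whether a number marks a shared passage or day is not given in the sources used here.

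The 10 genes, the 32 neighbours, the markers and the comparisons were chosen with earlier results of these data known. Named besides these 10 were KLK3, every neighbour called in DHT against VEH or in an antagonist with DHT against DHT, and, for each of the 10 called in DHT against VEH, the 3 genes with the highest Pearson r over the group means. Neighbours called with the block alone were named after their values were seen. Gene positions and promoter windows came from RefSeq on GRCh38.p14. Alternatives were no filter, a pseudocount of 0.1, median-ratio scaling, removal of mitochondrial genes, the block, a fit to the compared groups alone and each library left out. Protein sequences were not used here, and a listed marker and a listed motif are not reported here.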

Additional observations from a re-analysis of the deposited data

Results flagged for a closer look

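SMS met the condition that an effect of DHT differed between arms by a test of the difference itself. The interaction of antagonist and DHT, on the log2(TPM + 1) scale, was -1.76 for BIC, -1.83 for ENZ and -1.81 for APA, with limma adjusted p of 0.0016, 0.00099 and 0.0011. The DHT effect on SMS was 1.85 without an antagonist and 0.10, 0.03 and 0.04 with BIC, ENZ and APA. All 3 interactions use the same VEH and DHT libraries. Groups of 2 are too small for a test of single outlying libraries.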

How the results depend on the processing

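With the replicate block, the number of the 10 genes called went from 2 to 4 in DHT against VEH, in BIC.DHT against DHT and in APA.DHT against DHT, from 2 to 5 in ENZ.DHT against DHT, and from 1 to 4 in each of the 3 interactions. In the 9 other contrasts it stayed at 0. When the fit used the compared groups alone, leaving few degrees of freedom, 1 gene was called in DHT against VEH (SMS, adjusted p = 0.04) and 0 in BIC.DHT, ENZ.DHT and APA.DHT against DHT (SMS adjusted p of 0.12, 0.061 and 0.1, SRM 0.16, 0.15 and 0.15). Over all genes that fit called 173, 0, 7 and 0 in these comparisons, against 1709, 521, 1605 and 1391 before. Removing mitochondrial genes gave 2 calls for the interaction of ENZ and DHT, with SRM added (adjusted p = 0.042), and median-ratio scaling gave 3 in ENZ.DHT against DHT, with AMD1 added (log2 -0.33, adjusted p = 0.049).

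With each library left out in turn, the lone sample of a group being assumed to vary like the rest, the calls ran from 1 to 2 in DHT against VEH, were 1 in BIC.DHT against DHT, ran from 2 to 3 in ENZ.DHT against DHT (ODC1 added without ENZ.DHT replicate 2, adjusted p = 0.047), and ran from 1 to 2 for the interaction of ENZ and DHT (SRM added without ENZ.VEH replicate 1, adjusted p = 0.043). SMS kept its call in every such fit of DHT against VEH, with log2 fold changes of 1.73 to 1.98.

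Some small, uncalled differences turned direction. Over the libraries left out, AZIN1 ran from -0.13 to 0.09 in BIC.DHT, from -0.59 to 0.06 in ENZ.DHT and from -0.52 to 0.15 in APA.DHT against DHT, and OAZ2 from -0.17 to 0.18 in ENZ.DHT and from -0.05 to 0.33 in APA.DHT. SMS ran from -0.05 to 0.10 in ENZ.DHT against ENZ.VEH and from -0.04 to 0.13 in APA.DHT against APA.VEH. SRM ran from -0.34 to 0.08 in ENZ.DHT against ENZ.VEH, with 0.02 under median-ratio scaling, and from -0.08 to 0.23 in APA.DHT against ENZ.DHT. The cause was not tested.

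Of 30 called results, 239 of 312 alternatives left direction and call alone, 73 lost the call and 0 turned direction. Of 54 uncalled ones, 539 of 576 were alike, 23 gained a call and 14 turned direction. Median-ratio scaling moved the median log2 difference of all genes in DHT against VEH from -0.10 to 0.00.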
